A study of Homo sapiens with 10 samples.

Results

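The keratin genes described here are 46 members of the keratin family on hg38 chromosomes 12 and 17. They were chosen by name, and their rows are those of the deposited ATAC-seq peak annotation whose gene identifier is the Ensembl identifier of a member. ATAC-seq marks accessible DNA by the cuts of the Tn5 transposase. The list holds 161934 peaks, of which 59 were listed under a member. The libraries came from MDA-MB-231, a long-established triple-negative breast cancer line of human origin: 5 were labelled ARID1A knockout and 5 control. The ARID1A protein belongs to SWI/SNF, a complex that remodels chromatin, and binds DNA. The labels do not say whether the knockout cells were 1 clone or whether replicates came from separate cultures. The list covers all 10 libraries at once and holds no value per library, so no keratin gene was compared between knockout and control, no value has a replicate error, and the depth per library is unknown. What can be read from it is where peaks lie at the keratin genes of this line.

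Keratins build the intermediate filaments of epithelial cells. A type II (basic) keratin always pairs with a type I (acidic) keratin, and which pair a cell makes follows its epithelium: simple keratins in single-layered epithelia and luminal breast cells, basal keratins in the dividing layer of stratified epithelia and in basal breast cells, others in the differentiated layers, and hair keratins in the hair follicle. Type II genes form a cluster on chromosome 12 together with the type I gene KRT18, and the other type I genes form a cluster on chromosome 17. Of the members, 24 were type II and 22 type I, with 25 genes on chromosome 12 and 21 on chromosome 17.

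A gene was said to have a start peak where a peak listed under it lay within 1000 bases of an annotated transcript start, and a flanking peak only where every peak listed under it lay farther away. By this definition 11 of 46 members (23.9%) had a start peak, 18 had flanking peaks only and 17 had no listed peak. Among 15812 protein-coding genes whose strand was known from a RefSeq promoter window, 66.1% had a start peak by the same definition. At least 1 listed peak was found for 76.7% of them, against 29 of 46 keratin genes (63.0%). The sets are not alike: only 26 of 46 members had such a window, and 3 of these 26 had a start peak. The protein-coding shares are lower limits, because a gene that could not be paired with an identifier was counted as having none. For the 17 unpaired keratin genes, no transcript named in the list overlapped the gene on its strand. Measured without any identifier, 9 of 46 members (19.6%) had some peak within 1000 bases of their outermost RefSeq start, against 73.4% of those protein-coding genes. The median keratin gene had its nearest peak 4577 bases from that start, and the median protein-coding gene had a peak over it (0 bases). The median number of listed peaks was 1 per keratin gene and 2 per protein-coding gene.

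**Figure D1:**
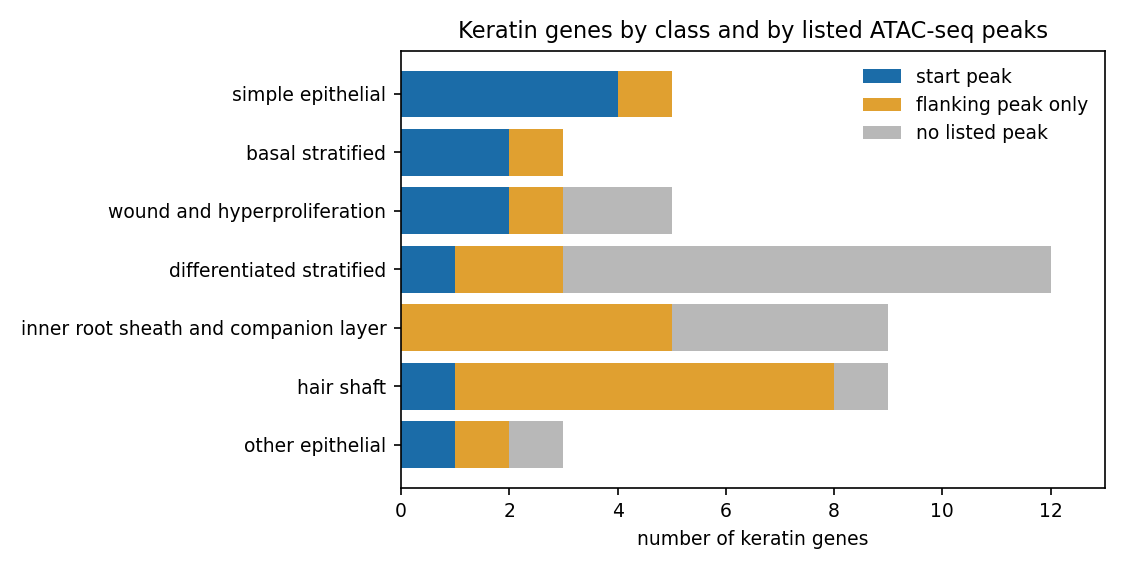
Number of keratin genes (x axis) in each of 7 classes (y axis), split by whether the peak list gives a start peak (within 1000 bases of a transcript start), flanking peaks only, or no peak. Of the 5 simple keratins 4 had a start peak, and of the 9 inner root sheath and companion layer keratins 0 did.

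The classes differed in their counts, set here beside the 66.1% of protein-coding genes with a listed start peak. The simple (80%) and basal (66.7%) shares lay above or near it, and every other class lay below it. The basal share depended on the listed starts. By the RefSeq start, 4 of 5 simple but only 1 of 3 basal keratins had a peak within 1000 bases, against 73.4% of protein-coding genes. Within 500 bases of a listed start the basal count was also 1. Start peaks were listed at 4 of 5 simple keratins (KRT7, KRT8, KRT18 and KRT19), 2 of 3 basal keratins (KRT5 and KRT15) and 2 of 5 keratins of wound repair and hyperproliferation (KRT16 and KRT17). They were listed at 1 of 12 keratins of differentiated or site-specific stratified epithelia (KRT78), 1 of 9 hair shaft keratins (KRT34), 0 of 9 keratins of the inner root sheath and companion layer, and 1 of 3 other epithelial keratins (KRT80). No test was run on these counts: the members of a class are neighbouring genes, not replicates. By type, 6 of 22 type I and 5 of 24 type II genes had one.

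The promoter windows below show the sequence at those starts for which RefSeq (GRCh38.p14) gave a window of 250 bases before and 50 after a start; 26 of 46 members had one. KRT8, KRT5 and KRT34 are the 3 members with both a start peak and a window. KRT31, KRT32 and KRT36 are, among basal and hair keratins with a window and no start peak, those whose listed peaks lay nearest to a start. All 6 genes are on the minus strand, and the sequences read 5′ to 3′ along the gene. Capitals mark letter matches on either strand. The TATA box was searched as the letters TATAAA. For the CCAAT box the search used those 5 letters. The letters of the GC box were GGGCGG, and those of the site bound by AP-1 factors were TGANTCA.
KRT8 (chr12:52926420-52926719): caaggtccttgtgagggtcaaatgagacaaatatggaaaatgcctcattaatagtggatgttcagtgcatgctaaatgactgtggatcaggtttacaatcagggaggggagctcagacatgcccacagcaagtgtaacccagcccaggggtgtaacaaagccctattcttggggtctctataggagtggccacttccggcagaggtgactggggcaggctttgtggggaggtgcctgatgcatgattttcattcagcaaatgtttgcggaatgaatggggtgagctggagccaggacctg
KRT5 (chr12:52520345-52520644): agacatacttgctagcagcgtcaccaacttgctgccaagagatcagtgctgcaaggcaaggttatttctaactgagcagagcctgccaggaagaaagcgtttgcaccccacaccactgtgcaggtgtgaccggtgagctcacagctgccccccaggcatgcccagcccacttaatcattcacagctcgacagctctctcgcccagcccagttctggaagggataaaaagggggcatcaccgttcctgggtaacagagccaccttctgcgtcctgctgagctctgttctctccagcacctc
KRT34 (chr17:41382257-41382556): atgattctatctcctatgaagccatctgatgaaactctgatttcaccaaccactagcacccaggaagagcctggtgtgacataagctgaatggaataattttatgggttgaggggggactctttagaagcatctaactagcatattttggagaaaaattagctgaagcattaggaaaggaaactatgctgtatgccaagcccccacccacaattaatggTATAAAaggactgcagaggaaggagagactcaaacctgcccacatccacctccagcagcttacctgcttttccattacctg
KRT31 (chr17:41397559-41397858): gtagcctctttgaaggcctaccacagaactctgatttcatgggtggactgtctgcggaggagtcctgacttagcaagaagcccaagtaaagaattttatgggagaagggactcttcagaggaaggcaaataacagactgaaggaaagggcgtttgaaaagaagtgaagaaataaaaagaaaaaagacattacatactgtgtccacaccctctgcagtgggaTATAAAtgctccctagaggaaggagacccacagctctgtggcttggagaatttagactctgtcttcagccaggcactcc
KRT32 (chr17:41467337-41467636): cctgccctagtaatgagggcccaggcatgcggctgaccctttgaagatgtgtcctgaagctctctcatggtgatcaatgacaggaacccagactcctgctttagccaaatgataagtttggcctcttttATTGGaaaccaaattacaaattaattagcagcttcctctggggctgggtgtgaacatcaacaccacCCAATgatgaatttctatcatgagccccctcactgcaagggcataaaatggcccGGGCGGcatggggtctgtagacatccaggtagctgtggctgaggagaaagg
KRT36 (chr17:41489861-41490160): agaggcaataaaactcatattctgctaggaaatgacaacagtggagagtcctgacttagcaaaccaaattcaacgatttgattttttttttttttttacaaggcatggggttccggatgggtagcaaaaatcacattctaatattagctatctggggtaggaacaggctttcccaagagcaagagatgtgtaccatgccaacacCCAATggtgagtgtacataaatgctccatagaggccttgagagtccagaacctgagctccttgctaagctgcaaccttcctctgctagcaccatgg

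KRT8 and KRT5 carried none of the 4 motifs in these windows. KRT34 and KRT31 each carried a TATA box, beginning 31 and 29 bases before the start, and KRT36 and KRT32 a CCAAT match beginning 46 and 55 bases before it. In KRT32 there was a further CCAAT match on the other strand and a GC box at the start. The KRT34 window was the 1 of 26 keratin windows that a peak overlapped, against 68.3% of all protein-coding windows. The 20 members without a window include 8 of the 11 with a start peak (KRT7, KRT18, KRT19, KRT15, KRT16, KRT17, KRT78 and KRT80), and 5 of these 8 had a peak over their RefSeq start, so the 26 windows do not stand for the whole family. In KRT34 the overlap took 129 bases at the upstream end of the window, and the peak ended 122 bases short of the start itself. The KRT8 window stands at the start at 52926469 and lay in a gap between a pair of peaks, the nearer one 317 bases upstream. The KRT8 start at 52905052, which the longest peak of that gene covered, was not among the windows examined. The KRT5 start was 955 bases from its nearest peak.

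CpG dinucleotides were counted in the 26 windows, only 3 of them from genes with a start peak; for the other 8 genes with one they were not measured. The median was 2 per window (quartiles 1.25 and 3.75, range 0 to 8), against 22 over all 15812 protein-coding windows. Protein-coding windows in a peak had a median of 26 and those in no peak a median of 6. The highest keratin counts, 8 each, were at KRT75, KRT79 and KRT9, none of which had a start peak; KRT5 and KRT85 had 7. KRT34, the member whose window a peak overlapped, had 0. GC content ranged from 30% (KRT28) to 67.3% (KRT79), with a median of 45.8% against 62.7%. A TATA box letter match was found in 13 of 26 keratin windows (50%) and in 9.75% of all windows, a CCAAT match in 12 (46.2%) against 36.4%, a GC box match in 4 (15.4%) against 58.3%, and an AP-1 match in 0 against 5.7%. All but 1 of the keratin windows lay in no peak. Among protein-coding windows in no peak the shares were 19.1% (TATA box), 35.5% (CCAAT), 30.9% (GC box) and 7.78% (AP-1). The median GC content of those windows was 53.3%. A match is only a run of letters, and its absence says nothing of a factor outside this window.

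**Figure D2:**
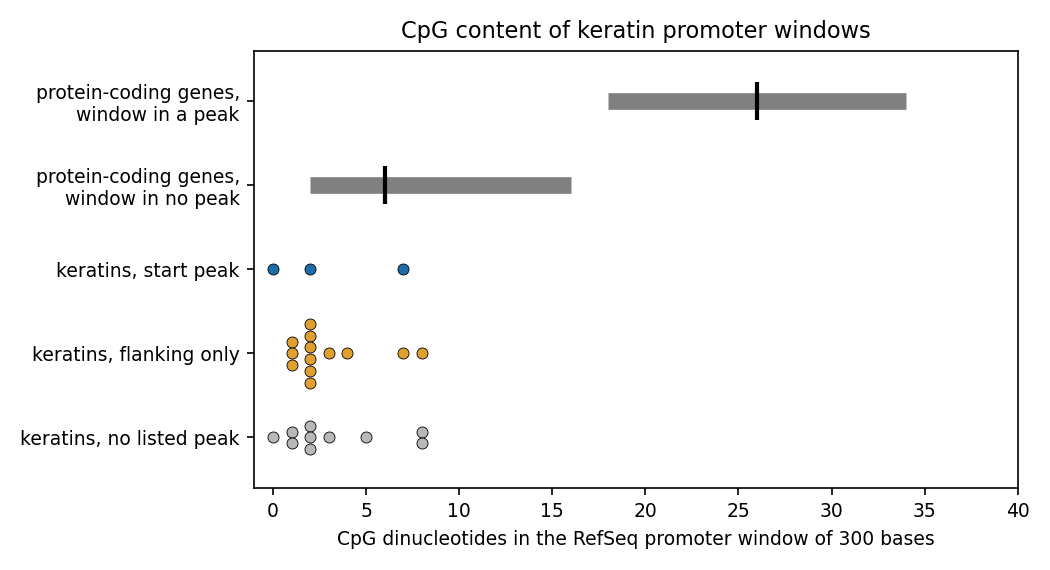
CpG dinucleotides (x axis) in the RefSeq promoter window of 300 bases. Each dot is 1 of 26 keratin genes, grouped by listed peaks; grey bars span the quartiles of protein-coding windows in a peak or in no peak, with a line at the median. The 26 keratin windows, 3 of them from genes with a start peak, sit between 0 and 8, and all lie below the lower quartile of 18 for windows in a peak.

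The simple keratins held more of the listed peaks than any other class, 19 of 59, over 5 genes. Their median was 4 listed peaks per gene, against 2 per protein-coding gene. KRT8 is also the longest of the member genes (52670 bases in RefSeq), and the part played by gene length was not tested. KRT8 and KRT18 form the first keratin pair of the embryo and are also made by luminal cells, and their genes lie next to each other on chromosome 12. KRT8 (ENSG00000170421, minus strand, 52897191 to 52949860 in RefSeq) had 6 listed peaks, the most of any member. The longest, 2160 bases at 52903353 to 52905512, covered an annotated start at 52905052 and was the longest peak of all 59. Another pair, of 1233 and 1034 bases, lay 369 bases inside and 317 bases upstream of the start at 52926469, and a peak of 706 bases lay 858 bases upstream of the start at 52907060. The other 2, of 563 and 1066 bases, lay just downstream of the gene.

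KRT18 (ENSG00000111057, plus strand, 52948855 to 52952906) had 1 start peak of 1436 bases at 52948786 to 52950221. It covered the gene's start and also the outermost RefSeq boundary of KRT8 at 52949860, which faces the other way. Which of these genes the peak belongs to cannot be told from the list, and KRT8 reaches its place among the 9 positional calls through it. The other 3 peaks listed under KRT18, of 470, 761 and 494 bases, were intergenic, from 5191 to 24490 bases beyond the start of its nearest annotated transcript.

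KRT7, a type II keratin of glandular and ductal epithelium (ENSG00000135480, plus strand, 52233243 to 52255853), had 5 listed peaks, 4 of them start peaks. The longest, 1867 bases at 52232193 to 52234059, covered the annotated start at 52232520 and the RefSeq start at 52233243. Peaks of 1532 and 503 bases covered inner starts at 52244378 and 52247658, and one of 443 bases lay 646 bases upstream of the outermost start. KRT7 therefore had peaks along its body as well as at its 5′ end.

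KRT19, the smallest keratin and a marker of luminal breast cells (ENSG00000171345, chromosome 17, minus strand, 41523617 to 41528308), had 3 listed peaks and none over a start. A peak of 628 bases lay 157 bases inside a start at 41528299, one of 566 bases 446 bases inside the start at 41524751, and the longest, 1267 bases, 1408 bases upstream of the outermost start. KRT20, a keratin of intestinal and urothelial cells, was the simple keratin without a start peak: its only listed peak, 604 bases long, lay 16836 bases upstream, and 0 peaks lay in the gene or within 3000 bases of it.

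**Figure D3:**
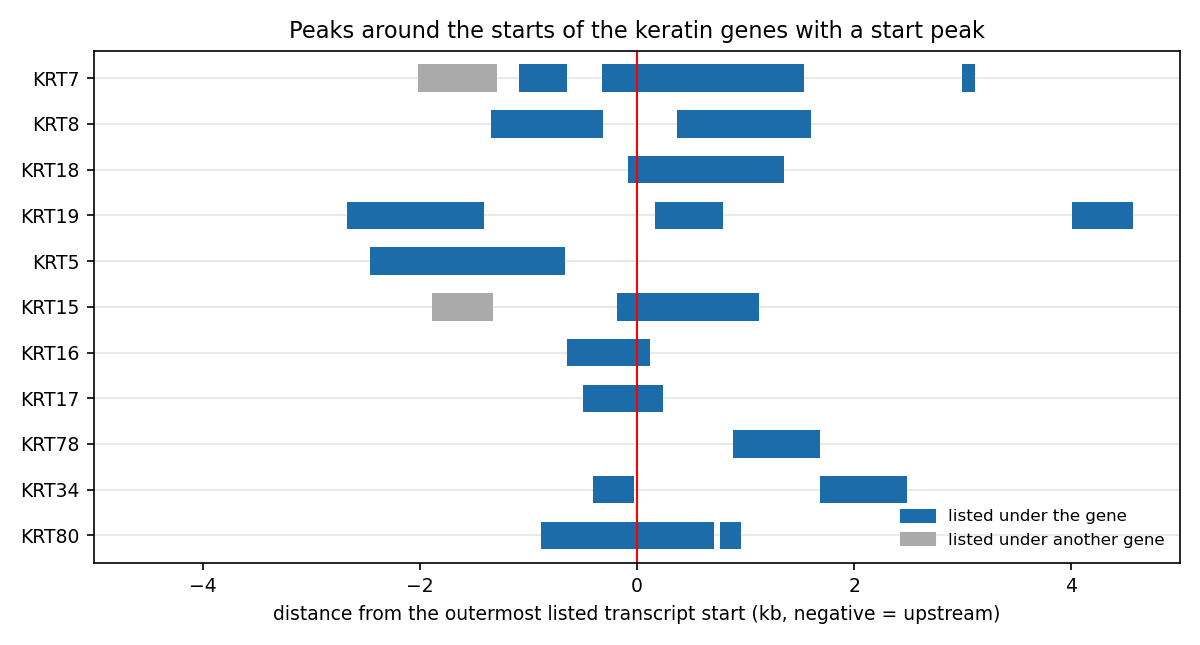
Peaks within 5000 bases of the outermost listed transcript start (red line, x axis in kb, upstream to the left) for the 11 keratin genes with a start peak (y axis). Blue peaks are listed under the gene and grey ones under another gene. Peaks cover the line at KRT7, KRT18, KRT15, KRT16, KRT17 and KRT80, and stand beside it at KRT8, KRT19, KRT5, KRT78 and KRT34.

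Of the basal keratins, KRT5 (ENSG00000186081, minus strand, chromosome 12, 52514575 to 52520394) had a long peak of 1801 bases at 52521349 to 52523149, which lay wholly upstream, 662 bases from the listed start. No peak overlapped the gene, and its other listed peak, 465 bases long, lay 8676 bases from the nearest listed start. KRT14, the type I partner of KRT5, had 2 flanking peaks of 771 and 348 bases, 3398 and 4522 bases from a start, and none in the gene. KRT15, a further basal keratin, had 1 listed peak of 1307 bases at 41521292 to 41522598. It covered an annotated start at 41522413 that lies 3523 bases upstream of the RefSeq start at 41518890, and was 2402 bases from the latter. No basal keratin gene had a peak in its RefSeq body.

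Among keratins induced in wounds and hyperproliferative skin, the type I genes had start peaks and the type II genes had none. KRT16 (ENSG00000186832, 41609778 to 41612767) had a peak of 767 bases over its start at 41612633 to 41613399, and KRT17 (ENSG00000128422, 41619442 to 41624575) one of 732 bases at 41624474 to 41625205. Both peaks covered the RefSeq start too, and the KRT17 peak was the only one listed under that gene. KRT6A, the type II partner of KRT16, had peaks of 337 and 723 bases 1372 and 3127 bases upstream, and KRT6B and KRT6C had no listed peak. These 3 type II genes are near-identical copies, and how reads that fit several places were treated is not given in the sources used here, so the lack of a peak there is uncertain. Sequence similarity was not examined for the other members, type I genes included, so the same limit may hold for them.

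Keratins of differentiated stratified epithelia were mostly without peaks: 9 of 12 had none listed. They were KRT1 and KRT2 of the upper epidermis, KRT9 of palms and soles, KRT4 and KRT13 of mucosa, KRT12 of the cornea, and KRT76, KRT77 and KRT79. KRT78 had a peak of 805 bases at 52847404 to 52848208, over an inner start at 52847953 and 786 bases inside the RefSeq start at 52848994. KRT10, the type I partner of KRT1 and KRT2, had 1 flanking peak of 195 bases 5475 bases upstream, and KRT3, the corneal partner of KRT12, 1 of 277 bases 3182 bases upstream. Inside KRT10 lay a peak of 830 bases that the list gives to another gene identifier, ENSG00000167920.

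The inner root sheath and companion layer keratins had 0 start peaks, 5 genes with flanking peaks and 4 with no listed peak (KRT25, KRT26, KRT72 and KRT73). KRT74 and KRT75 had 2 each, of 180 to 720 bases, between 6484 and 8886 bases upstream. KRT27 had 1 of 711 bases, 1327 bases upstream of the start of a short transcript and inside the RefSeq gene. KRT28 and KRT71 had 1 each, of 269 and 265 bases, 7886 and 8269 bases from the start and so near the 3′ end of the gene. Of the flanking peaks of this class, none exceeded 720 bases.

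Hair shaft keratins showed flanking rather than start peaks, at 7 of 9 genes. Among protein-coding genes 76.7% had a listed peak and 66.1% a start peak, so most with a listed peak had a start peak. KRT86 had 3 listed peaks, of 248, 582 and 838 bases, at 2948, 3272 and 2655 bases from a listed start. The peak of 248 bases, at 52252248 to 52252495, lay inside the RefSeq gene of KRT7, a simple keratin. From the RefSeq start of KRT86, the peak of 582 bases lay 3242 bases away and that of 838 bases 29875 bases inside. KRT81, KRT83 and KRT85 had 2 listed peaks each. The longest flanking peak on chromosome 12, 1616 bases at 52358543 to 52360158, reached into the 3′ UTR of KRT85, 4464 bases from a start. The longest on chromosome 17, 1484 bases at 41463976 to 41465459, lay inside KRT32, 1970 bases from its start. KRT81 lies inside the RefSeq span of KRT86, on the other strand, and of the 7 peaks within that span 2 were listed under KRT81 and 1 under KRT86. KRT36 and KRT31 had 1 each, of 488 and 444 bases, 1970 and 3000 bases from a listed start, and KRT35 had none. The KRT36 peak was 4606 bases from the RefSeq start. KRT34 had a peak of 381 bases 25 bases upstream of its listed start at 41382403 and another of 800 bases inside the gene; its outermost RefSeq start, at 41383816, was 1008 bases from the nearer one.

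Of the keratins outside these classes, KRT80 (ENSG00000167767, minus strand, 52168996 to 52192014), a type II keratin found in many epithelia, had 4 listed peaks, 3 of them start peaks. The longest, 1598 bases at 52191288 to 52192885, covered its start. KRT24 had 1 flanking peak of 723 bases 3938 bases upstream, and KRT23 had none listed.

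The distances near the limit of 1000 bases decide the state of several genes. Just inside it lay KRT5 at 662 bases, and just outside KRT27 at 1327 and KRT6A at 1372. With a limit of 3000 bases 18 of 46 members had a start peak, against 70.3% of protein-coding genes. The hair shaft count moved from 1 to 6 of 9 (KRT31, KRT32, KRT36, KRT81 and KRT86 joined KRT34), while the simple count stayed at 4 and the differentiated count at 1. These are distances to listed starts. From the RefSeq start, the nearest peak lay within 3000 bases at KRT32 (1927), KRT34 (1008) and KRT81 (2692). It lay beyond at KRT31 (3016), KRT86 (3242) and KRT36 (4606). Back at 1000 bases, with only peaks of at least the median length of the list, 539 bases, the hair shaft count was 0.

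A selection of 7 known keratin pairs was set side by side. It left out hair and root sheath pairs and any with KRT7, KRT17 or KRT19. For a single protein-coding gene the share with a listed start peak was 66.1%, and no share was computed for pairs. Of these pairs, KRT8 with KRT18 had start peaks at both genes. KRT7 and KRT19, simple keratins outside the selection, also had start peaks. KRT5 with KRT14 and KRT6A with KRT16 had one at a single partner, the type II gene in the former and the type I gene in the latter. The other 4 pairs, KRT1 and KRT2 with KRT10, KRT3 with KRT12, and KRT4 with KRT13, had none at either.

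A listed peak is assigned to the nearest start, so a keratin with no row can still lie beside a peak. By position, 19 of 46 members (41.3%) had a peak overlapping the gene, against 87.6% of protein-coding genes, and 27 (58.7%) had one in the gene or within 3000 bases of it, against 90.8%. Of the 17 members with no listed peak, 4 were among these 27. KRT79 had peaks of 968 and 678 bases 1303 and 2898 bases upstream, and KRT13 one of 626 bases beyond its 3′ end. KRT23 had one of 865 bases at its 3′ end, and KRT72 one of 720 bases beyond its 3′ end that is listed under KRT74. The other 13 had none.

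Both clusters also held peaks that were not listed under a member. The span of chromosome 12 from KRT80 to KRT18, 784 kb, held 63 peaks, 8.04 per 100 kb against 5.53 over the chromosome, of which 37 were listed under a member. That of chromosome 17 from KRT24 to KRT17, 927 kb, held 59, 6.37 per 100 kb against 8.06 over the chromosome, with 19 listed under a member. It also holds the keratin-associated protein genes, which are no members. Copy number was not measured. Within the chromosome 12 cluster the peaks were unevenly placed. In stretches chosen after the peaks were seen, 29 lay in the 152 kb from KRT80 to KRT83, 13 in the 214 kb from KRT85 to KRT74 and 14 in the 115 kb from KRT78 to KRT18, while 132 kb between 52583431 and 52715524 held none. That stretch contains KRT72, KRT73, KRT2, KRT1 and KRT77. A stretch of 57.5 kb without peaks contains KRT76 and KRT3, and one of 51.5 kb KRT6B and KRT6C with KRT6A. On chromosome 17, 51.1 kb without peaks contain KRT25 and KRT26.

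**Figure D4:**
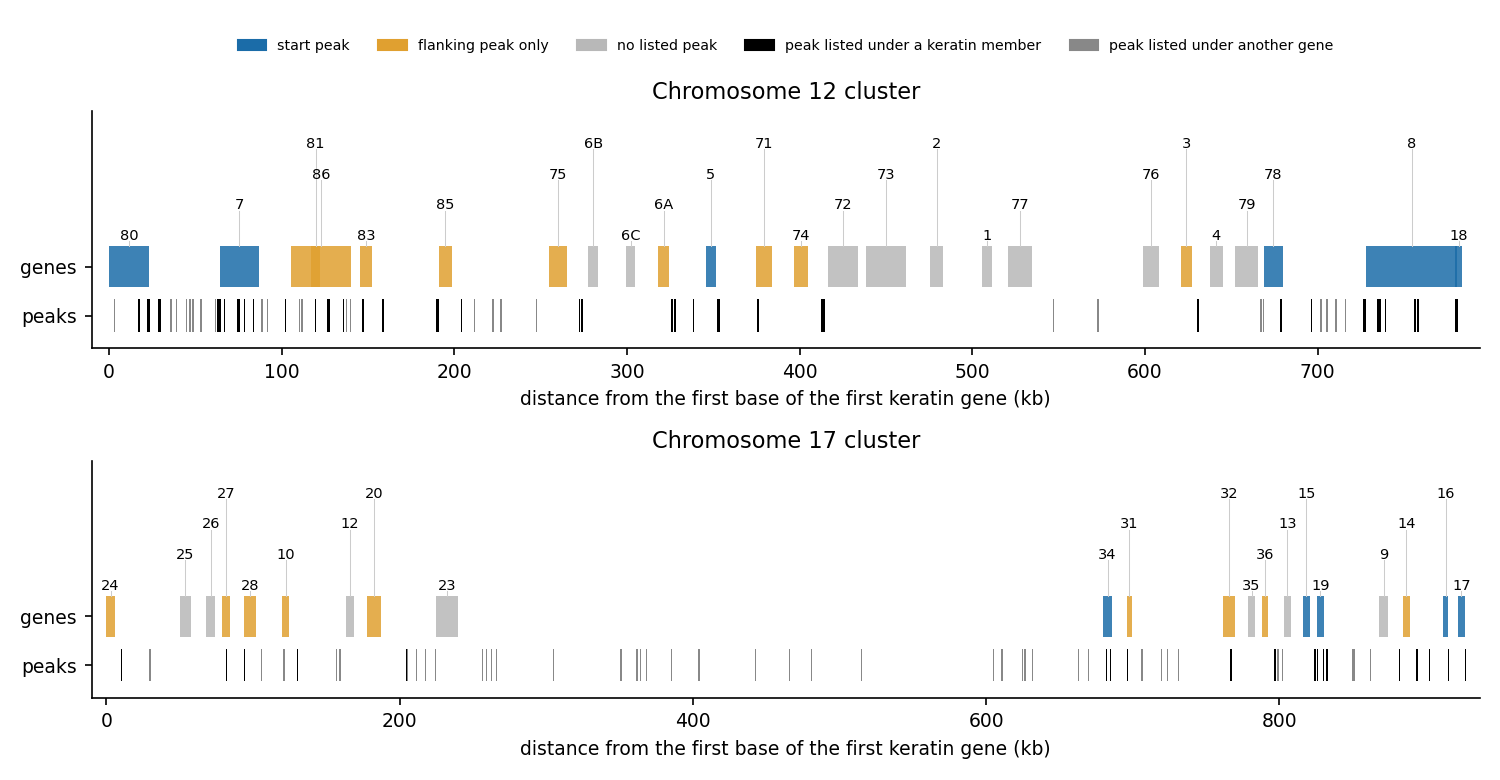
Keratin genes (coloured by listed peaks, labelled by number) and all peaks (ticks) along the clusters of chromosomes 12 and 17, in kb from the first keratin gene. Black ticks are listed under a member and grey ones under another gene. The chromosome 12 cluster has a stretch of 132 kb with no peak.

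As regions, the 59 keratin peaks had a median length of 628 bases (range 127 to 2160), against 539 for the whole list. Promoters, which the list extends to 3000 bases from a start, held 31 of 59 (52.5%, 95% Wilson interval 40 to 64.7, counting error only), against 30.4% of all peaks. Intergenic sequence held 16, regions just downstream of genes 5, introns 3 and exons 3. Introns held 5.08% of keratin peaks (interval 1.74 to 13.9) and 34.1% of all peaks. The 20 start peaks had a median of 919.5 bases, against 856 for all peaks within 1000 bases of a start, and the 39 others a median of 572 bases, against 499. No test was made, since peaks of neighbouring genes are not replicates.

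Genes that work with keratins are given for comparison. Their counts are read against the same backgrounds, 66.1% for a listed start peak and 73.4% for a peak within 1000 bases of the outermost RefSeq start. Of 16 other intermediate filament genes, 11 had a listed start peak (68.8%), near the background. Of the 13 that could be placed, 10 had a peak at the RefSeq start (76.9%), also near it. The other 3 had neither a promoter window nor a paired identifier to give a strand, so 76.9% may be too high. The keratin share by position kept its unpaired members, so these shares are not alike. VIM, the gene of vimentin, the filament protein of mesenchymal cells, had 1 of 1551 bases, and the lamin genes LMNA, LMNB1 and LMNB2 had them too. INA and BFSP2 had none, and 3 genes could not be paired with an identifier. Of 12 genes of desmosome plaque and filament-linking proteins, 9 had a listed start peak and 9 a peak at the RefSeq start (75% each), among them PLEC, the gene of plectin (2440 bases), PKP3 (2086 bases) and JUP (1154 bases). TCHP had no listed start peak and DSP was not paired, but both had a peak over their RefSeq start. TCHH had neither. Of 13 transcription factors known to act on keratin genes, 12 had a listed start peak (92.3%), including TFAP2C (2464 bases) and OVOL2 (2224 bases), but 8 had a peak at the RefSeq start (61.5%), so the list lay above the background by one measure and below it by the other. The other 5 had their nearest peak 1053 (KLF5), 1082 (FOXN1), 2179 (GRHL3), 2858 (EHF) and 7609 bases (TP63) from that start. For TP63, the regulator of basal keratins, the listed start peak of 922 bases lay at an inner start, and FOXN1 had none.

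Markers of the labelled cell type were checked by start peaks. All 5 mesenchymal markers (VIM, ZEB1, CD44, AXL and SPARC) had one, as did all 7 epithelial or luminal markers (CDH1, EPCAM, CLDN3, CLDN4, CLDN7, ESR1 and GATA3). SPARC, CDH1 and ESR1 had theirs at an inner start, with 1308, 4336 and 7887 bases from the outermost RefSeq start to the nearest peak. At the RefSeq start 4 of 5 mesenchymal (80%) and 5 of 7 epithelial or luminal markers (71.4%) had a peak, against 73.4% of protein-coding genes, and the listed counts stand against 66.1%. Of 4 leukocyte markers 1, PTPRC, had a listed start peak, of 280 bases, and its RefSeq start was 2842 bases from any peak. CD3E had none, CD4 and CD79A were not paired, and 0 of the 3 leukocyte markers that could be placed had a peak at the RefSeq start. Accessibility is not expression, and no RNA was measured here.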

How the data were processed

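ATAC-seq was done on 10 libraries of MDA-MB-231 cells, 5 per genotype. Per the submitters' processing notes the authors aligned reads with Bowtie2 2.3.5.1 and called peaks with MACS2 2.2.6 on hg38. The caller's threshold, the annotation release and the treatment of duplicates, of the Tn5 shift and of several libraries together set which peaks exist, and were not given in the sources used here. Per the file headers, the deposited list gives positions, lengths and distances in bases over 17 columns, 0 of them per library. The planned test of knockout against control needed counts and was not run. Recomputed distances to the listed start matched in 100% of rows.

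Ensembl identifiers were paired with RefSeq symbols (GRCh38.p14) by position: the same strand where known, each the best match of the other, and overlap divided by union of 0.5 or more, or else a boundary within 100 bases. Of 46 members 29 were paired. For the other 17, no transcript named in the list overlapped the gene on its strand, and they are given as having no listed peak. Member strands were entered from textbook knowledge and matched all 26 given by RefSeq, each of them minus. The plus-strand entries, KRT7, KRT18 and KRT86, had no window, so this match did not check them. Lookup, pairing and motif search were tested on simulated data. Python 3.11.15, numpy 2.4.6, pandas 2.3.3 and statsmodels 0.14.6 were used.

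The members, classes and lists were chosen with earlier results of these data known. Named genes were all members with a start peak, then up to 3 per class with most listed peaks, and those with none as a list; individual peaks were the longest per cluster. Other peaks and genes, and the windows of KRT34 and KRT5, were chosen after their values were seen.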

Additional observations from a re-analysis of the deposited data

How the results depend on the processing

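No paired analysis was possible because 1 peak list serves all 10 libraries. Another test, no filter, a replicate block and fits without each library in turn, meant for knockout against control, were not run either, as they need counts. The 11 genes with a start peak became 10 within 500 bases, 10 with peaks of the median length or longer, 9 by the RefSeq start, 8 where a peak had to cover the listed start, and 18 within 3000 bases. Over protein-coding genes the share was 66.1% as reported, 73.4% by the RefSeq start and 70.3% within 3000 bases. For the other settings it was not computed. Keratin genes with flanking peaks only, 18 as reported, were 11 within 3000 bases, since the wider limit moves 7 of them to start peaks, 19 within 500 bases and 13 with longer peaks. Keratin peaks, 59 as reported, were 52 by position within 3000 bases of a gene and 38 when shorter peaks were left out. Of these 59 peaks 52.5% were in promoters as reported, against 30.4% of all peaks. By the narrower definition, 33.9% lay within 1000 bases of a start, against 19.8% of all peaks. The promoter share of keratin peaks was 57.9% among longer peaks and 61.2% in bases. Depth, and so what a missing peak means, is unknown.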
